A study of Mus musculus with 5 samples.

Results

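Serpinf1, Fam101b, Apobec1, Plch2, Fat2, Ucp2, Fbxo32 and Vwa1 are 8 of the 18384 mouse genes counted in single cells of MMTV-PyMT tumor organoids. They were selected by their own readout in these cells: each was several fold higher in cells with basal keratins than in the other cells, both in basement membrane extract (BME) and in Collagen I. That excess is therefore a description here and carries no test. The comparisons of the matrices within each class of cells were not named in the selection, but the working name of the group, matrix-stable basal genes, was given with results of these plates in view, so the tests below are not independent evidence of stability.

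The organoids come from mammary tumors of mice in which the MMTV promoter drives the polyoma middle T oncogene in mammary epithelium, and all groups share this oncogene. Organoids taken from BME cultures were embedded again in BME (labelled as without invasion) or in fibrillar Collagen I (labelled as invasive) for 5 days, dissociated, and sorted as live single cells into 384-well plates for SORT-seq, in which each transcript molecule is tagged before amplification. BME was represented by 3 plates and Collagen I by 2 plates, replicates 1 and 3. A second Collagen I plate was not analysed here. Nothing in the labels says that the plates came from separate cultures, so p-values measure the spread between plates, which may be technical. The names of the deposited files place the 3 BME plates on 1 flow cell and each Collagen I plate on a flow cell of its own, so the matrix and the sequencing run cannot be told apart. All plates carry the same 384 well names, since the cell barcode marks the position in the plate.

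In the mammary gland, basal epithelial cells lie against the basement membrane, express keratins 5, 14 and 17 and the transcription factor p63, and hold on to laminin through hemidesmosomes, whereas luminal cells carry keratins 8 and 18. In invasive mammary carcinoma models, cells with basal keratins often sit at the front towards the matrix. The 8 genes are not keratins and have unlike roles: secreted and matrix proteins (Serpinf1, Vwa1), an adhesion protein (Fat2), a partner of filamin (Fam101b), and enzymes or carriers inside the cell (Plch2, Apobec1, Ucp2, Fbxo32).

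Promoter entries of the 8 genes were inspected because the genes were high in the same class of wells. RefSeq promoter entries (GRCm38.p6) were found for 6 of the 8 genes, with 7 entries in all since Plch2 has 2 starts. Vwa1 and Fbxo32 had no entry. The 250 bases before each start were searched on both strands for 6 motifs. The RUNX motif was searched as TGTGGT. For AP-1 the letters were TGANTCA, with any base at N. The TEAD motif was read as GGAATG. The GC box was taken as GGGCGG. For the TATA box the search used TATAAA. The E-box was searched as CACGTG. No 2 of these motifs contain each other. The sequences that hold a RUNX, AP-1 or TEAD motif are shown 5′ to 3′ on the strand of the gene, with capitals for every motif of the 6 that was found.
Serpinf1, chr11:75422624-75422873, minus strand: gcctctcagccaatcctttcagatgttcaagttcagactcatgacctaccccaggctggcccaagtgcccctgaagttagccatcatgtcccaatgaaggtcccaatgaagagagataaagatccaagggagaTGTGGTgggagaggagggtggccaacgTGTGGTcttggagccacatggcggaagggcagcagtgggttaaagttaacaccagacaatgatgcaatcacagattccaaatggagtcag
Apobec1, chr6:122602445-122602694, minus strand: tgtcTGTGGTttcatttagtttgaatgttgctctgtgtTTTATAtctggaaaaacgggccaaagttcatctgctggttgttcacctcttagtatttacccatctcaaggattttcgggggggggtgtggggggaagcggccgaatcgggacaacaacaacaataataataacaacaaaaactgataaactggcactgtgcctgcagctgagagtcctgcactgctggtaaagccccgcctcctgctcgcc
Ucp2, chr7:100493108-100493357, plus strand: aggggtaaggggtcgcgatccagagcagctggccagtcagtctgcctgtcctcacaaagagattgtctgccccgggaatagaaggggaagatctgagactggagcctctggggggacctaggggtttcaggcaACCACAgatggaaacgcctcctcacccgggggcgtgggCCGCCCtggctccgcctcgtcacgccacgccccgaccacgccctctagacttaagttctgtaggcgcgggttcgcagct
Fat2, chr11:55312258-55312507, minus strand: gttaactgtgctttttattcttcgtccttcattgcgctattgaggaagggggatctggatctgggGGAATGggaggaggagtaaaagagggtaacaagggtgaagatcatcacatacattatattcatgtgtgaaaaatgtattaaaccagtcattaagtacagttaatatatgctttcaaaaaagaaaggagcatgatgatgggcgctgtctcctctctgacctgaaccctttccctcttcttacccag
Plch2, chr4:155019429-155019678, minus strand: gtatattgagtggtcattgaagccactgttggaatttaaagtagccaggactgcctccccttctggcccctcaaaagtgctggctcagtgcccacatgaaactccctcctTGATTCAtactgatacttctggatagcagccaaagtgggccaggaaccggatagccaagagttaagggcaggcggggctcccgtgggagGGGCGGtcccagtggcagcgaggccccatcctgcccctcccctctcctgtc

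The RUNX letters were found in 3 of the 7 entries (Serpinf1, Apobec1, Ucp2), against 14.05% of all 32851 mouse promoter entries of the same length. The GC box stood in 4 of 7, against 32.7% of all entries. The AP-1 letters stood in 1 entry (Plch2; 6.75% of all), the TEAD letters in 1 (Fat2; 12.6% of all), the TATA box in 1 (Apobec1; 12.4% of all) and the E-box in 0 of 7 (6.02% of all). The Fat2 entry and both Plch2 entries lie inside the annotated spans of these genes, so their motifs are not upstream of the whole gene. A TGANTCA site reads the same on both strands and was counted once per promoter. No motif was shared by all 7 entries.

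In the GRCm38 annotation, Serpinf1 (chr11:75409769-75422701) and Fam101b (listed as Rflnb, chr11:76019194-76027782) lie on the minus strand of the same chromosome, 0.596 Mb apart. Plch2 (chr4:154983115-155056784) and Vwa1 (chr4:155768149-155774698) lie 0.711 Mb apart on the minus strand of chromosome 4. The others are Fat2 (chr11:55250609-55336564), Apobec1 (chr6:122577792-122602444) and Fbxo32 (chr15:58175879-58214932) on the minus strand, and Ucp2 (chr7:100493337-100502020) on the plus strand. All 8 are protein-coding. Of the genes between the paired members, 0 of 9 tested genes on chromosome 11 and 0 of 11 on chromosome 4 were at least 2-fold higher in basal wells of every plate. By the edgeR test between the classes, which called 27.7% of 10862 genes in either direction, 4 of the 9 genes on chromosome 11 were higher in basal wells, among them 1700016K19Rik by 2.74 (adjusted p = 5.79e-05) and Wdr81 by 1.56 (adjusted p = 0.000853) on the log2 scale. On chromosome 4 the same test called 1 of the 11 genes as higher (Ski, 0.45, adjusted p = 0.0268) and 2 as lower.

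Wells entered the analysis with over 500 counts, under 8000 genes and under 10% of counts from mitochondrial genes, which 319, 318 and 307 of the 384 wells met in BME and 251 and 305 in Collagen I. A well was called basal when Krt5, Krt14 and Krt17 together made up at least 5 per 10000 counts, and non-basal under 2. This gave 96, 114 and 92 basal wells in BME and 88 and 138 in Collagen I, beside 190, 166 and 181, and 133 and 144, non-basal wells. The Collagen I plates were much shallower, with a median of 4124 and 2579 counts in basal wells against 16930, 22604 and 26524 in BME. In a well under 2000 counts a single keratin count suffices for the basal class. All 9 basal markers (among them Trp63, Col17a1, Itgb4 and Lama3) were higher in basal wells by the edgeR test between classes, which called 27.7% of 10862 genes. The class label therefore held for the whole list, of which the keratins were used to define it. The contractile myoepithelial genes Acta2, Myh11, Cnn1 and Tagln were at or near 0 in BME basal wells. Mylk reached 23.4 ± 4.91 CPM (SD, n = 3 plates) there and was higher in basal than non-basal wells (0.89, adjusted p = 0.00442, edgeR). In Collagen I, Acta2 reached 20.9 ± 15.6 CPM (SD, n = 2 plates) in basal wells, higher than in BME (8.13, adjusted p = 2.03e-05, edgeR). Myh11, Cnn1 and Tagln were at 0 there. The wells are called basal and not myoepithelial since most of these genes were at or near 0, although Mylk and Acta2 went the other way. Of 10 luminal markers in the same test between classes, 7 were lower in basal wells and 0 higher, with Cd14 at -1.78 (adjusted p = 1.69e-07, edgeR). Epcam (0.13, adjusted p = 0.4), Krt8 (0.23, adjusted p = 0.191) and Krt19 (-0.18, adjusted p = 0.642) did not pass that edgeR test and were present in both classes.

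Levels are given as CPM, the counts of a gene per 1000000 counts summed over the wells of one class in a plate. They are compared within a gene. Where all plates of one matrix lie above those of the other, without overlap in a level or ratio, this is a description only. The share of all genes with such a separation is not given. With so few plates such a separation can arise by chance. An exact permutation test over these plates cannot go below p = 0.1. A lower sum cannot be told apart into fewer cells with the transcript and less transcript per cell without the shares of wells given further on.

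All 8 genes were at least 2-fold higher in basal than in non-basal wells of every plate, a level reached by 1.92% of 10862 genes, and this is the property they were chosen for. The ratio in a plate ranged from 3.77 (Apobec1, Collagen I replicate 3) to 31.7 (Serpinf1, BME replicate 1), and no basal value of any of the 8 genes overlapped a non-basal value of that gene. The size of the excess changed with how wells were weighted and with thinning. The geometric mean ratios over plates were 4.48 to 18.7 for the 8 genes from sums over wells, 3.31 to 7.59 when each well counted equally, and 2.58 to 6.24 when wells were thinned to 2000 counts and classed again on the thinned counts. After thinning 7 of the 8 genes were still at least 2-fold higher in every plate, and the lowest ratio of Apobec1 was 1.85. The wells between the classes, with keratins of 2 to 5 per 10000 counts, had levels between the group means of the other classes for each gene in BME. In Collagen I this did not hold for Plch2, at 4.19 ± 5.93 CPM (SD, n = 2 plates, 0 and 1 counts) against 5.42 ± 2.34 CPM in non-basal wells, and in Collagen I replicate 3 Vwa1 was at 8.39 CPM (1 count) in the between wells and 15.0 CPM in the non-basal wells.

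Serpinf1 encodes a secreted serpin, pigment epithelium-derived factor, that does not inhibit proteases and is known for blocking vessel growth. Its basal level was 204, 223 and 209 CPM in BME, whereas the Collagen I plates had 307 and 181 CPM. The Collagen I values enclosed the BME values. In non-basal wells it was at 6.42, 13.1 and 9.81 CPM in BME and 10.6 and 26.3 CPM in Collagen I, so that the ratio between the classes was lowest in Collagen I replicate 3. That ratio, 6.87 with a 95% exact interval of 3.83 to 13.2 from counting error, rested on 68 and 14 counts, whereas the other plates had ratios of 17.0 to 31.7. Intervals of this kind cover counting error only.

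Vwa1 encodes a von Willebrand factor A domain protein of the pericellular matrix that binds perlecan and collagen VI. Its basal level was 184, 120 and 86.4 CPM in BME and 201 and 146 CPM in Collagen I. The groups overlapped, and the BME plates alone spanned more than 2-fold. In non-basal wells the level was 28.6, 15.0 and 15.3 CPM in BME and 21.2 and 15.0 CPM in Collagen I.

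Fat2 encodes a giant atypical cadherin found at cell contacts. Basal wells held 82.3, 68.8 and 71.8 CPM in BME and 64.4 and 53.2 CPM in Collagen I, so both Collagen I plates were below every BME plate. The ratio between the classes lay between 8.53 and 13.7 in all plates. The non-basal sums of the Collagen I plates were only 4 and 3 counts.

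Fam101b (refilin B) encodes a protein that binds filamins and organises actin bundles. It was at 347, 484 and 434 CPM in basal BME wells and at 724 and 341 CPM in basal Collagen I wells, the lowest and the highest value both being Collagen I plates. Non-basal wells had 33.9, 83.0 and 41.3 CPM in BME and 80.2 and 54.6 CPM in Collagen I.

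Plch2 encodes a phospholipase C of the eta type, which cleaves the membrane lipid PIP2 and responds to calcium. It was at 153, 106 and 114 CPM in basal wells in BME and at 71.9 and 77.2 CPM in Collagen I, without overlap. Non-basal wells had 18.3, 13.3 and 13.1 CPM in BME and 7.07 and 3.76 CPM in Collagen I, again without overlap, although the latter stand for 6 and 2 counts.

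Ucp2 encodes a carrier of the inner mitochondrial membrane. It was at 359, 286 and 278 CPM in basal BME wells and at 201 and 208 CPM in basal Collagen I wells. All BME plates were above both Collagen I plates. Its ratio between the classes was the lowest of the 8 on geometric average over plates, 4.48, and spanned 3.81 to 5.08.

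Apobec1 encodes the cytidine deaminase that edits apolipoprotein B mRNA. Its basal level was 136, 159 and 143 CPM in BME, and 302 and 149 CPM in Collagen I. Replicate 1 in Collagen I was thus far above all BME plates, while replicate 3 lay inside their range. In non-basal wells the level was 28.1, 30.3 and 34.2 CPM in BME and 25.9 and 39.5 CPM in Collagen I.

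Fbxo32 encodes atrogin-1, an F-box protein that brings substrates to the SCF ubiquitin ligase and is known from muscle atrophy as a target of FoxO factors. Basal wells had 122, 230 and 151 CPM in BME and 268 and 208 CPM in Collagen I, which overlap. Non-basal wells had 13.4, 15.7 and 10.7 CPM in BME and 53.1 and 26.3 CPM in Collagen I, which do not.

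**Figure D1:**
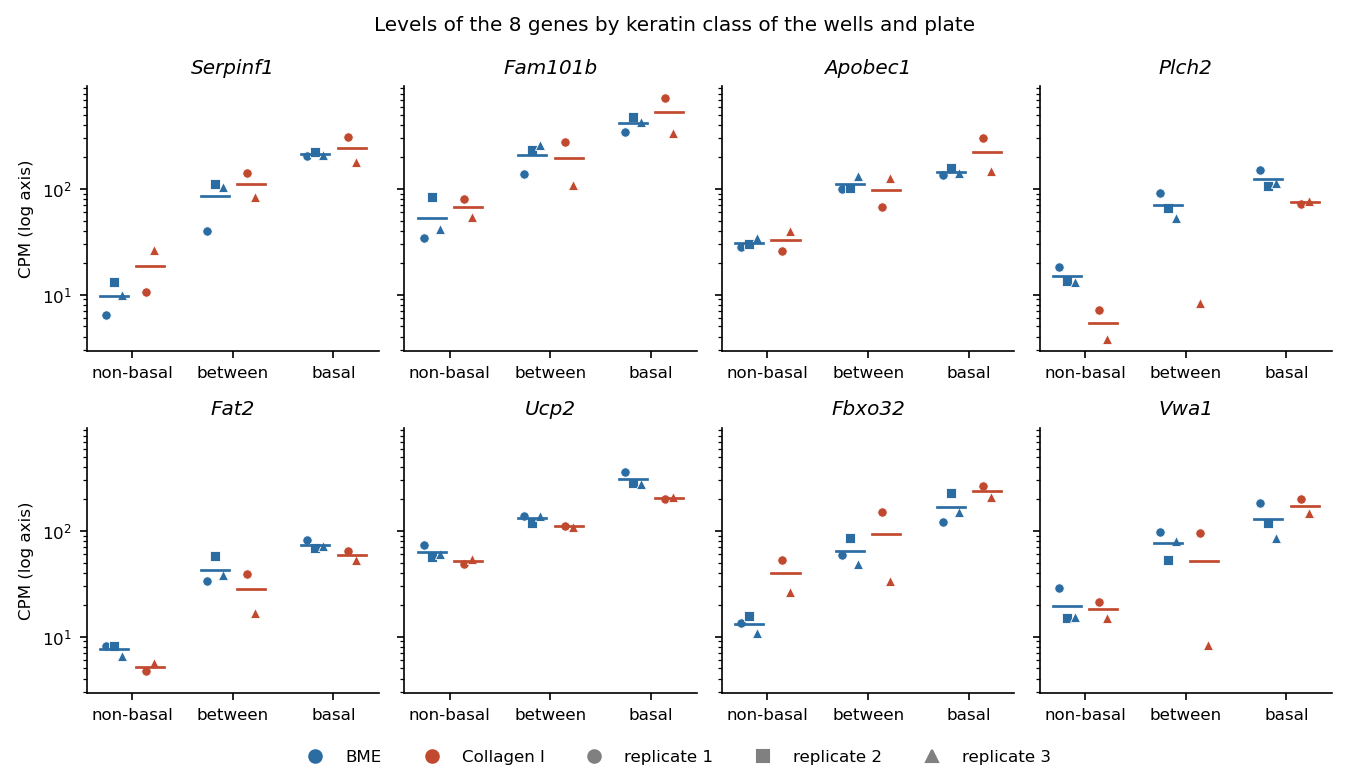
CPM of the 8 genes (log axis) in non-basal, between and basal wells, 1 point per plate, with a bar at the mean of the plates. Every basal point lies above every non-basal point of the same gene, and the 2 Collagen I points spread widely for Serpinf1, Fam101b and Apobec1. Plch2 had 0 counts in the between wells of Collagen I replicate 1, and that point and its mean bar are left out.

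The summed level of the 8 genes was also set against the amount of keratin in finer bins. In BME their summed level rose from 162 ± 29.3 CPM (SD, n = 3 plates) in wells under 0.5 keratin counts per 10000 to 286 ± 38.3 CPM in wells of 0.5 to 2. It was 794 ± 83.8 CPM in wells of 2 to 5 and 1268 ± 179 CPM in wells of 5 to 10, the bins on either side of the basal limit. Above that it was 1486 ± 77.6 CPM in wells of 10 to 20, 1828 ± 159 CPM in wells of 20 to 40 and 1927 ± 141 CPM in wells of 40 and more. In Collagen I the wells of 2 to 5 had 691 ± 277 CPM (SD, n = 2 plates), and those of 5 to 10 had 1448 ± 538 CPM. From 10 upwards the Collagen I sums were level, at 1825 ± 619, 1849 ± 830 and 1848 ± 289 CPM. The plates of the 2 matrices overlapped in each bin from 2 upwards. Single genes did not all climb above the basal limit: Apobec1 in BME was at 161 CPM in wells of 10 to 20, 148 CPM in those of 20 to 40 and 133 CPM in those of 40 and more. Within the basal wells of a plate the Spearman rho of a gene with the keratins was weak, from -0.09 (Fat2) to 0.14 (Serpinf1) in Collagen I replicate 3, 0.03 to 0.20 in BME replicate 3 and at most 0.31 (Fam101b, BME replicate 1).

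**Figure D2:**
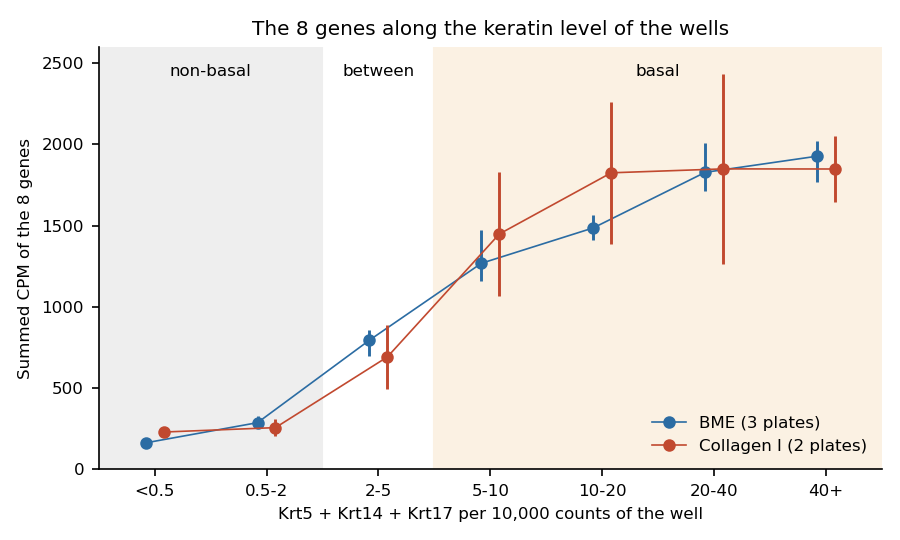
Summed CPM of the 8 genes against the Krt5, Krt14 and Krt17 counts per 10000 counts of the well, with the mean over plates (points) and the lowest to highest plate (bars). The sum climbed from 162 to 1927 CPM in BME and from 228 to 1825 CPM in Collagen I at 10 to 20, with 1849 and 1848 CPM above that, and the bars of the Collagen I plates are wide from 5 upwards.

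Wells were also divided by Cdh3, Trp63 and Itga6, 3 basal genes outside the keratins. The limits were at least 2 per 10000 counts for basal and under 0.5 for non-basal wells. This made 119, 129 and 124 wells basal in BME, and 148 and 146 in Collagen I. By these classes 1 of the 8 genes (Fam101b) remained at least 2-fold higher in basal wells of every plate. The geometric mean ratios over plates were then 3.21 (Ucp2) to 11.05 (Serpinf1), and the lowest ratio in a plate was 0.964 (Fat2). Cdh3 and Itga6 were themselves higher in Collagen I in both classes, at 36.5 ± 11.7 and 221 ± 30.8 CPM (SD, n = 2 plates) in non-basal wells against 15.96 ± 5.38 and 76.9 ± 1.48 CPM (n = 3 plates) in BME. Trp63, the third of these genes, went the other way in basal wells, at 71.6 ± 10.9 CPM in Collagen I against 184 ± 18.6 CPM in BME (-1.32, adjusted p = 0.000167, edgeR). Classes by Krt5 alone left 6 genes, and classes by Krt14 alone 7 genes, at 2-fold or more in every plate.

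The first comparison asked whether the level in basal wells differs between the matrices. Of the 8 genes, 1 was called, Apobec1, which was higher in Collagen I by 0.67 on the log2 scale (SE 0.21, adjusted p = 0.0305, edgeR quasi-likelihood test), so for Apobec1 the name matrix-stable goes against this test. The test called 19.1% of 10296 genes in this comparison. The call rested on 1 library: without Collagen I replicate 1 the difference was 0.08 (adjusted p = 0.879, edgeR). Without BME replicate 3 it was 0.68 and just missed the threshold (adjusted p = 0.0591). DESeq2 gave nearly the same difference, 0.67, with an adjusted p of 0.0713, and without cycling wells it was 0.45 (adjusted p = 0.162, edgeR). In all, the call was lost under 6 of 17 settings, with the same direction in each.

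The other 7 genes missed the threshold, which does not show that they were equal. Plch2 (-0.69, 95% interval -1.20 to -0.18, edgeR adjusted p = 0.0509) and Ucp2 (-0.55, adjusted p = 0.0506) lay at the threshold, with both Collagen I plates under all BME plates. Under 7 of 17 other settings Plch2 passed it, and under 6 of 17 Ucp2 did, always as lower in Collagen I. Without BME replicate 2 the values were -0.81 for Plch2 (adjusted p = 0.0154, edgeR) and -0.62 for Ucp2 (adjusted p = 0.0344). Fbxo32 differed by 0.54 (95% interval 0.08 to 1.01, adjusted p = 0.0943 with edgeR) and passed under 3 of 17 settings, among them the fit without BME replicate 2 (0.82, adjusted p = 0.0029). Without wells with fibroblast markers it was 1.16 (adjusted p = 0.000735, edgeR), whereas it was 0.29 (adjusted p = 0.395) without cycling wells and 0.22 (adjusted p = 0.598) after thinning. The fibroblast list includes Postn, which was itself high in basal wells. The filter on this list took out 42, 46 and 42 basal wells in BME, but 15 and 24 in Collagen I. Without only the wells with Col1a1, Col1a2, Col3a1 or Dcn the Fbxo32 difference was 0.62 (adjusted p = 0.051, edgeR). Fam101b passed without Collagen I replicate 3 (0.78, adjusted p = 0.0464 with edgeR) and without wells with fibroblast markers, but turned to -0.26 without Collagen I replicate 1. Without only the wells with Col1a1, Col1a2, Col3a1 or Dcn the Fam101b difference was 0.41 (adjusted p = 0.216, edgeR). Vwa1 passed without BME replicate 1 (0.81, adjusted p = 0.00286). The edgeR differences of Vwa1, Fam101b, Serpinf1 and Fat2 were 0.47, 0.37, 0.24 and -0.29, with adjusted p of 0.22, 0.265, 0.422 and 0.458. For 4 of the 8 genes (Serpinf1, Fam101b, Fat2 and Ucp2) the 95% interval stayed within 2-fold in either direction.

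Markers of luminal cells also differed between the matrices in these basal wells. Of 8 tested, 5 were higher in Collagen I and 0 lower, where 19.1% of 10296 genes were called in either direction. The sum over the 10 markers of the list was 1209 to 1298 CPM in BME and 3991 to 4041 CPM in Collagen I. Csn3, the milk protein kappa-casein, went from 1.23 ± 1.73 CPM (SD, n = 3 plates) to 305 ± 214 CPM (n = 2 plates), a difference of 7.80 (adjusted p = 2.36e-10, edgeR). Krt18, Krt8, Cldn3 and Epcam rose by 2.77, 2.35, 1.78 and 1.38. In non-basal wells 6 of 10 luminal markers were higher and 3 lower in Collagen I, where 28% of 11076 genes were called in either direction. Elf5 was at 0 in both classes of the Collagen I plates. Their part in the differences of the 8 genes was not tested.

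The median difference of the 8 genes was 0.31, against -0.03 over all genes tested, and the median size without its sign was 0.51 for both. The 208 tested genes that were at least 2-fold higher in basal wells of every plate, the 8 genes among them, had a median size of 0.76, and 42.8% of them were called, 73 as higher and 16 as lower in Collagen I. These shares are given as a description, with no test between them.

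In non-basal wells 2 of the 8 genes were called, against 28% of 11076 genes. Fbxo32 was higher in Collagen I by 1.67 (SE 0.30, adjusted p = 0.000688, edgeR), and Plch2 was lower by -1.36 (SE 0.48, adjusted p = 0.0432). The Fbxo32 difference was 1.03 (adjusted p = 0.167, edgeR) without Collagen I replicate 1 and 1.12 (adjusted p = 0.0758) when all wells were thinned to 2000 counts. The Plch2 call was lost under 11 of 16 settings, among them the fits without BME replicate 1 (-1.15, adjusted p = 0.0672 with edgeR), without Collagen I replicate 1 (-1.94, adjusted p = 0.144) and without Collagen I replicate 3 (-1.10, adjusted p = 0.213). Its direction was the same in all 16. Fam101b was not called in non-basal wells (0.41, adjusted p = 0.383) but passed without BME replicate 2 (0.88, adjusted p = 0.00662, edgeR).

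The basal excess itself was compared between the matrices in a fit with the plate as a block. Fbxo32 was called, with an excess smaller in Collagen I by 1.13 on the log2 scale (-1.13, SE 0.28, adjusted p = 0.0148, edgeR), against 4.29% of 10862 genes. Its ratio between the classes was 9.12, 14.6 and 14.1 in BME and 5.05 and 7.89 in Collagen I, without overlap. The excess remained in every plate but was smaller in the 2 Collagen I plates, in which the non-basal level was higher. The call was lost under 8 of 18 settings, including the fits without Collagen I replicate 1 (-0.73, adjusted p = 0.567) and without BME replicate 2 (-0.92, adjusted p = 0.0952, edgeR) and DESeq2 (-1.04, adjusted p = 0.086). None of the other 7 genes was called in the edgeR fit. At an unadjusted p under 0.05 Apobec1 was the only further member (0.62, unadjusted p = 0.0493, adjusted p = 0.319), and without Collagen I replicate 3 it passed (1.27, adjusted p = 0.0418).

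**Figure D3:**
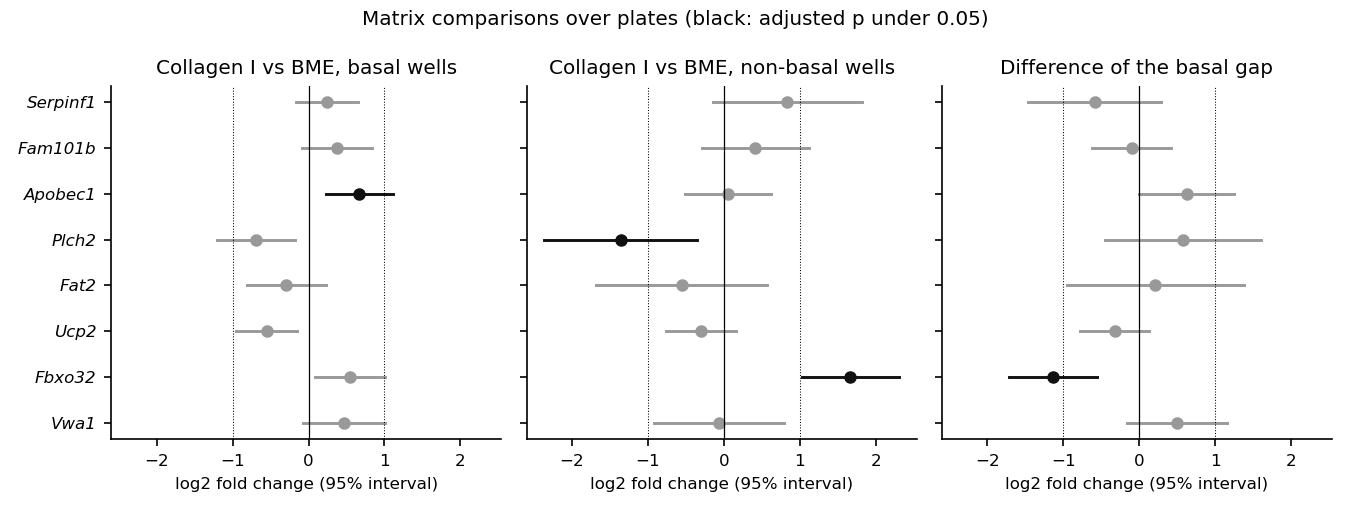
Log2 fold change of Collagen I against BME with its 95% interval from edgeR, in basal wells (left), in non-basal wells (middle), and the difference of the basal over non-basal gap (right). Black marks an adjusted p under 0.05: Apobec1 on the left, Plch2 and Fbxo32 in the middle and Fbxo32 on the right. Dotted lines mark a 2-fold change.

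Fibroblast markers did not move as one group. Of the 3 tested in basal wells, Col1a1 was higher in Collagen I (3.77, adjusted p = 1.73e-06, edgeR), Postn was lower (-0.93, adjusted p = 0.0187), and Pdgfra differed by 0.44 (adjusted p = 0.438). In non-basal wells 2 of 4 were higher, Col1a1 and Dcn, and 0 lower. Over all genes, 19.1% were called in basal and 28% in non-basal wells, in either direction. Over the 8 markers of that list the sum was 153 to 236 CPM in basal wells of BME and 146 to 503 CPM in those of Collagen I, and 41.4 to 47.1 against 120 to 350 CPM in non-basal wells. Postn, itself high in basal wells, and Pdgfra made up most of it in BME, where Col3a1 was at 0 in basal wells. The summed level of Col1a1, Col1a2, Col3a1 and Dcn was 4.31 to 10.3 CPM in basal BME wells, 39.7 CPM in Collagen I replicate 1 and 389 CPM in Collagen I replicate 3. In that plate Serpinf1, which fibroblasts also express, was at 46.9 CPM in the 14 basal wells with at least 2 such counts and at 198 CPM in the other basal wells. The BME plates went the other way, at 245, 269 and 410 CPM in 4, 5 and 1 such wells against 202, 219 and 208 CPM in the others. Without all such wells the 8 genes were still at least 2-fold higher in basal wells of every plate, and Plch2 was called as lower in Collagen I (-0.78, adjusted p = 0.0329, edgeR). Endothelial, immune and adipocyte markers summed to 0 to 8.25 CPM in any class and plate. Cell cycle genes were lower in Collagen I, with 10 of 10 called as lower in basal wells (median -1.79) and 6 of 10 in non-basal wells. Their part in the matrix differences of the 8 genes was not tested. The fits without cycling wells also leave out counts, so a lost call there cannot be assigned to cycling.

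Within the basal wells of a plate, cycling wells (at least 20 cell cycle counts per 10000) were set against the others as a description. Fbxo32 was lower in the cycling wells of all 5 plates. It stood at 57.7, 52.5 and 48.5 CPM in cycling wells of the BME plates and at 150, 271 and 206 CPM in the other basal wells, ratios of 0.385, 0.194 and 0.236. In Collagen I the ratios were 0.281 and 0.271, from levels of 80.5 and 58.2 CPM in cycling wells that stand for very few counts. Vwa1 and Fam101b were also lower in the cycling wells of 5 of 5 plates, at ratios of 0.358 to 0.911 and 0.810 to 0.947 in BME. Serpinf1 went the other way, at 265, 284 and 240 CPM in cycling wells against 177, 209 and 193 CPM in BME and with a higher level in cycling wells of all 5 plates. The other 4 genes were not on one side in all plates. The cycling class held 18, 18 and 24 basal wells in BME but only 9 and 8 in Collagen I. The Collagen I ratios therefore rest on few counts in cycling wells, and the direction in these plates is uncertain.

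**Figure D4:**
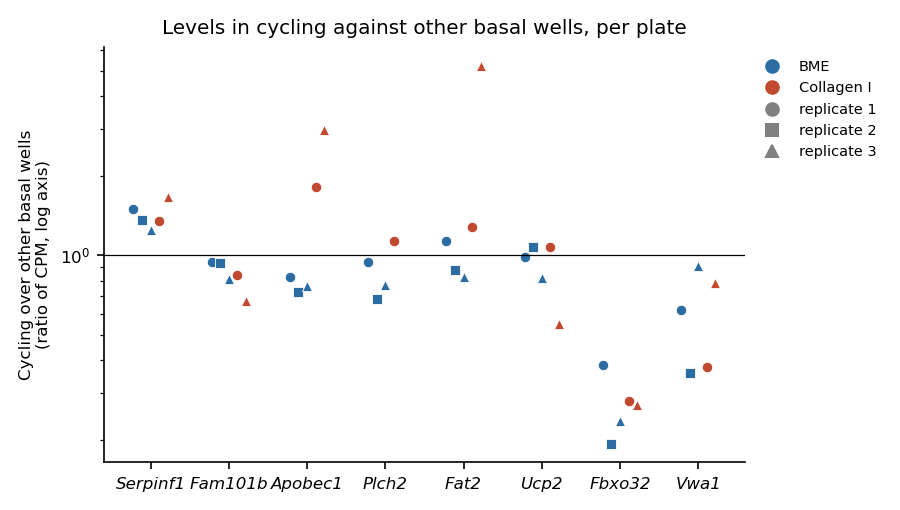
Ratio of CPM in cycling over other basal wells (log axis), 1 point per plate. Fbxo32 lies between 0.194 and 0.385 in all 5 plates and Serpinf1 above 1 in all 5. The Collagen I points rest on few counts in cycling wells. Plch2 in Collagen I replicate 3 had 0 counts in the 8 cycling wells and is left out.

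The share of basal wells with a count of a gene was compared at a common depth, since the unthinned shares differed as the depth did: over the 8 genes they averaged 69.4% ± 1.92 (SD, n = 3 plates) in BME and 33.5% ± 13.4 (n = 2 plates) in Collagen I. After thinning each well to 2000 counts the average was 22.9% ± 0.869 in BME and 23.6% ± 4.94 in Collagen I (two-sided exact permutation test over plates, p = 0.8, where 3 against 2 plates cannot go below 0.1). Thinning left out 33, 63 and 48 wells of the BME plates and 33 and 104 wells of the Collagen I plates. Wells were classed again on the thinned counts, where 1 keratin count makes a well basal and no well remains between the classes. The basal class then held 113.65, 118.65 and 101.6 wells on average in BME, and 89.95 and 95.2 in Collagen I. Among single genes the largest differences were -7.84 percentage points (Ucp2, 32.4% against 24.6%), 7.27 (Fbxo32, 20.4% against 27.6%) and -6.84 (Plch2, 17.6% against 10.8%). Their exact permutation p were 0.2, 0.3 and 0.2, and 0.48 after adjustment over the 8 genes.

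At that depth and by the classes of the thinned counts, a basal well held 1.81, 1.78 and 1.91 of the 8 genes on average in BME. In Collagen I it held 2.16 and 1.61. A non-basal well held 0.507, 0.616 and 0.519 in BME, and 0.529 and 0.436 in Collagen I. The share in non-basal wells, in which the genes are low, serves as the background: for Serpinf1 it was 2.65 to 4.77% in BME against 19.0 to 23.2% of basal wells at the same depth. The background was higher for other genes: in BME Ucp2 had 12.7 to 13.6% against 28.4 to 36.2%, and Fam101b 8.76 to 17.5% against 36.9 to 46.0%. A share of 17.3 to 23.1% of basal wells in BME, and 20.8% and 33.6% in Collagen I, held none of the 8.

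From well to well the 8 genes followed each other only in part. Over the basal wells of a plate (n = 88 to 138), the median Spearman rho of the 28 pairs was 0.22 to 0.30, with single pairs from -0.03 to 0.51. The highest pair in BME was Plch2 with Fat2, at a mean rho of 0.45 over the 3 plates. All these wells share a library, and depth adds to the correlation: the share of Serpinf1 in a well had a rho with the total counts of the well of 0.517 to 0.601 in BME. These values are descriptions of sparse counts.

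Over the 10 sums (basal and non-basal wells of 5 plates), the 28 pairs of the 8 genes had a Pearson r of 0.82 to 0.99 (median 0.94) on log2(CPM + 10), which the difference between the classes sets. Of 6505 genes compared, those most like the mean profile of the 8 were Col17a1 (r = 0.994), the hemidesmosome collagen, Lgals9, a galectin (0.993), Dsp, the desmosome protein desmoplakin (0.991), Pard6g, a polarity protein (0.991), and Krt5 (0.990). By gene, the most alike were Col17a1 for Serpinf1 (0.990), Bmp7 for Fam101b (0.983), Ephb3 for Apobec1 (0.989), Moxd1 for Plch2 (0.991), Pard6g for Fat2 (0.993), Ajuba for Ucp2 (0.994), Agrn for Fbxo32 (0.991) and Dsp for Vwa1 (0.984).

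The relatives and partners of the 8 genes were taken from lists of families and pathways and compared by the same edgeR fits, with the class test used here for genes outside the selection. Over all genes and in either direction, the class test called 27.7%, and the test between the matrices in basal wells called 19.1%. Of 12 other serpins, 8 were tested, of which 5 were higher and 2 lower in basal wells. The 3 most abundant differed: Serpinb5 (maspin) was higher in basal wells by 1.35 and Serpinb6a by 0.44, whereas Serpine2 was lower by -0.81 (adjusted p = 4.03e-06, 0.00647 and 9.49e-05, edgeR). Serpine2 rose in Collagen I in basal wells by 0.72 (adjusted p = 0.00409).

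Of the filamin group around Fam101b, 4 of 5 tested genes were higher in basal wells and 4 of 5 rose in Collagen I in basal wells. Flna, the main actin crosslinking filamin, was higher in basal wells by 1.52 and rose in basal wells in Collagen I by 0.98 (adjusted p = 0.000373, edgeR). Fblim1 rose by 0.97 in basal wells (adjusted p = 0.00351, edgeR), while Fam101b itself was not called. Fam101a, the other refilin, was higher in basal wells by 2.49 (adjusted p = 8.64e-05, edgeR). It rose in basal wells in Collagen I by 2.41 (adjusted p = 1.73e-06, edgeR).

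Of the deaminases and editing cofactors around Apobec1, 4 were tested, with 1 higher and 1 lower in basal wells. Rbm47, the RNA-binding cofactor of Apobec1, was lower in basal wells by -0.89 and rose in Collagen I in basal wells by 1.71 (adjusted p = 2.16e-05, edgeR). Apobec3 fell in basal wells (-0.94, adjusted p = 0.0052), and Syncrip differed by -0.46 (adjusted p = 0.185).

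Of the phospholipase C isoforms, 6 were tested beside Plch2. Plcg2 was lower in basal wells (-1.26) and Plcd1 higher (0.82, adjusted p = 0.000423, edgeR), and Plcb3 differed by 0.31 (adjusted p = 0.216). Plcd1 rose in basal wells in Collagen I (1.17, adjusted p = 0.00893).

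Of the cadherin group around Fat2, 3 of 8 tested genes were higher in basal wells. Fat1 was higher by 0.85 and the phosphatase Ptprf, a partner of Fat2, by 0.51, while Cyfip1 of the WAVE complex differed by 0.01 (adjusted p = 0.94, edgeR). Fat1 did not pass between the matrices in basal wells (-0.25, adjusted p = 0.365), and Ptprf rose there by 0.72 (adjusted p = 0.00814).

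Of the mitochondrial carriers, 5 were tested in basal wells, and 2 fell in Collagen I. Slc25a5 and Slc25a4, the adenine nucleotide carriers, fell in basal wells by 1.37 and 0.76 (adjusted p = 2.65e-05 and 0.0081, edgeR) and did not differ between the classes beyond the threshold. Slc25a11 differed between the matrices by -0.26 (adjusted p = 0.496).

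Of the SCF ligase and FoxO genes around Fbxo32, 3 of 9 tested genes were higher and 1 lower in basal wells. Foxo1 was higher in basal wells by 0.43 and rose in Collagen I in both classes, by 0.86 in basal and 1.18 in non-basal wells (adjusted p = 0.00194 and 5.6e-05, edgeR). The core subunits Skp1a and Rbx1 passed in neither comparison.

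Of the pericellular matrix genes around Vwa1, 5 of 8 tested genes were higher and 2 lower in basal wells. Agrn, a heparan sulfate proteoglycan, was higher by 0.95 and the dystroglycan gene Dag1 by 0.54, whereas Col6a1, a chain of collagen VI, was lower by -0.94 (adjusted p = 0.00498, edgeR). None of the 3 was called between the matrices in basal wells. Of the 7 genes of this list tested there, 1 was called. It was Hspg2, the perlecan gene, higher in Collagen I by 2.13 in basal wells (adjusted p = 6.63e-07, edgeR). In non-basal wells it was higher by 1.55 (adjusted p = 3.84e-05, edgeR).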

How the data were processed

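The authors deposited expected counts per gene and well (estimated transcript counts, corrected for saturation of the molecular identifiers). The submitters' processing notes name BWA and mm10, with versions not given in the sources used here. The 5 plates held 9077590, 9335872 and 10911740 counts (BME) and 1631981 and 1091410 counts (Collagen I) without spike-ins.

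Counts were summed per plate and keratin class and rounded. The matrices were compared with edgeR 4.0.16 (R 4.3.3; TMM, filterByExpr, quasi-likelihood test, Benjamini-Hochberg over all genes tested, called at an adjusted p under 0.05). The difference of the basal excess had the plate as a block. The test between the classes was added for the related lists and background after the design was written. DESeq2 1.42.0, limma 3.58.1, numpy 2.4.6, pandas 2.3.3, scipy 1.17.1 and matplotlib 3.10.9 (Python 3.11.15) served for alternatives, tables and figures. The scripts were tested on simulated data. No doublet caller and no clustering were used. Thinning was repeated 20 times for the shares of wells with a count. The thinned sums, their ratios and their fits come from 1 draw.

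The 8 genes and the lists were chosen with earlier results of these data known. Named are all 8 genes, the 3 genes of highest mean CPM in each related list, the 5 genes most like the mean profile (at least 20 CPM) and the most alike gene of each member. The result of 1 gene that this rule names is not reported here. Col17a1, Trp63, Itgb4, Lama3, Acta2 and the other cell type markers come from a list of markers. Hspg2 and Fam101a, from the related lists, are named beyond the rule. Positions are from GENCODE vM21. The fits without wells of stromal transcripts were added after the data were seen.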

Additional observations from a re-analysis of the deposited data

Results flagged for a closer look

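The basal over non-basal gap of Fbxo32 differed between Collagen I and BME by -1.13 on the log2 scale in the edgeR fit with plates as blocks (adjusted p = 0.0148). Among the 3 most abundant genes of each related list the gap differed for Serpinb5 (0.86), Serpine2 (0.49), Fblim1 (-1.30), Ptprf (-0.83) and Dag1 (-0.66). Their edgeR adjusted p were 0.0256, 0.04, 0.0027, 4.51e-05 and 0.00322. It also differed for Fam101a (-2.01, adjusted p = 0.00481, edgeR). The matrix and the sequencing run cannot be told apart in any of these.

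The wells that failed the filters, 65, 66 and 77 in BME and 133 and 79 in Collagen I, also held transcripts of the 8 genes. Their summed level there was 588, 369 and 611 CPM in BME and 897 and 847 CPM in Collagen I. This was above the level of 3 counts in each plate (1.64 to 46.2 CPM) and between the non-basal (192 to 251 CPM) and basal sums (1363 to 2140 CPM) of the wells that passed.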

How the results depend on the processing

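The number of genes called in basal wells, 1967, was 846 after thinning and 818 to 2266 without 1 plate. In non-basal wells, 3106 became 1107 after thinning and 1337 to 3690 without 1 plate. For the gap, 466 became 249 with DESeq2, 110 without the plate block, 211 with the replicate block in its place, 48 after thinning, 221 without wells with fibroblast markers and 200 to 492 without 1 plate. Without Collagen I replicate 1 these 3 counts were 1012, 1337 and 200, and without Collagen I replicate 3 they were 818, 1758 and 223, in fits that assume that the lone plate varies like the others. Without BME replicate 1 the gap count was 296. Thinning leaves fewer counts, and leaving out plates fewer samples.

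Replicate numbers 1 and 3 are shared by both groups, but nothing says that they mark shared cultures, and deviations of equally numbered plates correlated at -0.01 for both. With the replicate block 1958 genes were called in basal and 3006 in non-basal wells; Plch2 (-0.80, edgeR adjusted p = 0.0154), Ucp2 (-0.60, 0.039) and Fbxo32 (0.83, 0.00192) passed in basal wells, Serpinf1 (1.13, 0.0446) and Fam101b (0.88, 0.00214) in non-basal wells, and the Fbxo32 gap did not (-1.17, 0.0534).

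The count of 8 genes at 2-fold or more in every plate was 1 with classes by Cdh3, Trp63 and Itga6. The mean share of basal wells with a member differed by 0.634 percentage points at 2000 counts, by -4.50 at 4000 and by -36.0 unthinned, where Serpinf1 (-29.3), Fam101b (-30.4; -13.8 at 4000), Apobec1 (-29.8), Fbxo32 (-21.6) and Vwa1 (-34.1; -1.02 at 4000) turned in sign; the unthinned shares follow the depth.

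Without 1 plate the difference in basal wells ranged from -0.18 to 0.53 for Serpinf1 and from -0.26 to 0.78 for Fam101b, that in non-basal wells from -0.27 to 0.39 for Apobec1 and from -0.35 to 0.34 for Vwa1, and that of the gap from -1.75 to 0.36 for Serpinf1, -0.49 to 0.14 for Fam101b, -0.39 to 1.27 for Apobec1 and -0.14 to 0.42 for Fat2. Other changes of sign were, in non-basal wells, Apobec1 with no filter (-0.043) or over 2000 counts per well (-0.10), and Vwa1 with stricter class limits (0.27), no mitochondrial limit (0.0047), without the deepest 5% of wells (0.0082), without wells with fibroblast markers (0.27) and without those with Col1a1, Col1a2, Col3a1 or Dcn (0.11, chosen after seeing the data). For the gap they were Fam101b over 2000 counts (0.084), after thinning (0.12) and without fibroblast markers (0.022), and Fat2 without fibroblast markers (-0.14), cycling wells (-0.17) or collagen and Dcn wells (-0.058). None of these values was called except the gap of Apobec1 without Collagen I replicate 3 (1.27, edgeR adjusted p = 0.0418) and Fam101b in basal wells without Collagen I replicate 3 (0.78, adjusted p = 0.0464), and the cause was not tested. In all, 442 of the 558 single values under alternatives kept their direction and side of the threshold or their level.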
